A study of Arabidopsis with 2 samples.

Results

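Heat shock transcription factors (HSFs) are the DNA-binding proteins that switch on chaperone genes, and 10 Arabidopsis genes of this family were followed here in embryos with and without functional CUC1 and CUC2. The genes were HSFA1A, HSFA1B, HSFA1D, HSFA2, HSFA3, HSFA4A, HSFA7A, HSFB1, HSFB2A and HSFB2B. They were found by locus identifier among the 21500 gene probes of the array, and each of the 10 had a single probe. Among these, 5 of the 6 genes classed as heat-inducible had lower signals in cuc1 cuc2 than in Ler in both hybridizations. So did 22.9% of all gene probes and 31.2% of those with a software error under 0.25 on the log2 scale in both. HSFA3, the other inducible gene, was higher in both, as were 23.1% of all gene probes, with ratios smaller than their errors. None of the 10 reached the p-value criterion of the study's methods. The 5 mean log2 ratios, given throughout as cuc1 cuc2 relative to Ler, ran from -0.48 (HSFB2B) to -0.24 (HSFA7A). None of the 3 HSFA1 genes, which are present without heat, kept one sign in both hybridizations. Nor did 11620 of the 21500 gene probes, or 4051 of the 10792 with a software error under 0.25 in both.

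The study screened for genes that depend on CUC1 and CUC2, a pair of NAC transcription factors that act at the boundary between the cotyledons. One RNA extract came from wild-type Ler embryos and the other from cuc1-1 cuc2-1 double-mutant embryos, in each case from about 100 embryos at the torpedo stage. The parents were Ler plants and cuc1-1 cuc2-1/+ plants, kept on soil at 23°C in constant light, and no treatment was given. The embryos were dissected in 6% glucose before fixation, and the amplified, dye-labelled RNA of both genotypes was hybridized together on 2 arrays with the dyes exchanged. In the "Cy5 hybridization" the cuc1 cuc2 RNA carried Cy5, and in the "Cy3 hybridization" it carried Cy3. Both hybridizations used the same pair of extracts, so each genotype is 1 biological sample and the spread between hybridizations is technical. No test across samples can be made, and genotype cannot be told apart from any other difference between the 2 pools of embryos. In whole embryos, fewer cells that express a gene and less RNA per cell cannot be told apart either.

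Plant HSFs bind heat shock elements, short inverted repeats in the promoters of chaperone genes. In unstressed cells the HSFA1 proteins are held inactive by HSP70 and HSP90 chaperones, and unfolded proteins released by heat draw these chaperones away. HSFA1 then turns on a second layer of factors, including HSFA2, HSFA7A, HSFB1, HSFB2A and HSFB2B, as well as DREB2A, which in turn activates HSFA3. Class A factors carry an activation motif. Class B factors lack it, and HSFB1 and HSFB2B are known as repressors that dampen the response, in part by acting on HSFA2 and HSFA7A. In seeds, a further factor, HSFA9, is known to work under ABI3 during maturation.

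The arrays set the precision of every value. Of the gene probes, 18102 (84.2%) passed the software's test against background in all channels, as did the 10 HSF probes, none of which was saturated. Over all gene probes the ratios of the 2 hybridizations were correlated negatively (r = -0.441), and over the 10792 probes whose software error was under 0.25 on the log2 scale in both hybridizations they were correlated positively (r = 0.559). Both correlations are across genes, which are not independent replicates. The directions given here come from the dyes stated in the labels. CUC2 (AT5G53950) had a mean log2 ratio of -0.81 (error 0.22) and CUC1 (AT3G15170) one of -0.045 (error 0.12). The embryo regulators LEC1, FUS3, ABI3 and L1L all gave signal above background. The first 3 had mean log2 ratios from 0.031 to 0.062, and L1L had one of 0.66. Of the endosperm markers, AGL62 was above background in every channel and PHE1 and FWA in none, and of the seed coat markers TT8 and TT10 were above background and BAN and TT12 were not. The mean log2 ratios of AGL62, TT8 and TT10 were 0.034 (error 0.23), -0.17 (error 0.58) and 0.0044 (error 0.64), and their part in the results was not tested.

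The HSFA1 factors are the activators that are present without heat. The probe of HSFA1A (AT4G17750) gave dye-normalized signals of 530 in cuc1 cuc2 and 478 in Ler in the Cy5 hybridization, and of 440 and 442 in the Cy3 hybridization. Its log2 ratios were 0.15 (error 0.34) and -0.0079 (error 0.28), each within its error of 0. HSFA1B (AT5G16820) was similarly dim, with signals of 373 and 344 in the Cy5 hybridization and 469 and 498 in the Cy3 hybridization. The order of the genotypes thus turned with the dye, and the log2 ratios were 0.12 (error 0.45) and -0.087 (error 0.27). HSFA1D (AT1G32330) was the brightest of these probes, with signals of 1881 and 2062 in the Cy5 hybridization and 1836 and 1773 in the Cy3 hybridization. Here the errors were smaller, and the ratios still had opposite signs, at -0.13 (error 0.18) and 0.050 (error 0.17). The means of the 3 genes were 0.071 for HSFA1A, 0.015 for HSFA1B and -0.041 for HSFA1D, with a median of 0.015. Over all gene probes the median of the deposited ratios was 0 in each hybridization, so these means lay close to the bulk of the transcripts.

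HSFA2 (AT2G26150) is the inducible activator that prolongs the heat response and sustains acquired thermotolerance. Its signals were 25620 in cuc1 cuc2 and 36843 in Ler in the Cy5 hybridization, and 32194 and 36054 in the Cy3 hybridization. The Ler signal was higher both times, but the gap depended on the hybridization, with log2 ratios of -0.52 (error 0.17, software p-value 0.00178) and -0.16 (error 0.16, software p-value 0.318). The mean log2 ratio was -0.34 (error 0.12), which is a change of -21.2%. The Cy5 spot of HSFA2 was the only HSF spot that the scanner software marked as non-uniform, and without it the log2 ratio of -0.16 from the Cy3 hybridization remains.

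HSFA7A (AT3G51910) belongs to the same induced layer of class A factors. Its signals were 10619 in cuc1 cuc2 and 13360 in Ler in the Cy5 hybridization, and 12738 and 14162 in the Cy3 hybridization. Again cuc1 cuc2 was the lower genotype both times, with log2 ratios of -0.33 (error 0.17) and -0.15 (error 0.16) and a mean of -0.24 (error 0.12). HSFA3 (AT5G03720), the class A factor downstream of DREB2A, went the other way. It was among the dimmest probes, with signals of 294 in cuc1 cuc2 and 247 in Ler in the Cy5 hybridization, and of 246 and 219 in the Cy3 hybridization. Its log2 ratios of 0.25 (error 0.59) and 0.17 (error 0.47) were both positive and both smaller than their errors. HSFA3 was the only one of the 10 genes higher in cuc1 cuc2 in both hybridizations, which 23.1% of all gene probes were.

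The class B genes HSFB1, HSFB2A and HSFB2B were all lower in cuc1 cuc2 in both hybridizations. HSFB2A (AT5G62020) had the closest pair of values. Its signals were 6880 in cuc1 cuc2 and 8676 in Ler in the Cy5 hybridization, and 6824 and 8840 in the Cy3 hybridization. Exchange of the dyes thus hardly moved the ratio, with -0.33 (error 0.17, software p-value 0.0440) and -0.37 (error 0.17, software p-value 0.0245) on the log2 scale, a gap of 0.039. Its mean log2 ratio was -0.35 (error 0.12), a change of -21.8%.

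HSFB2B (AT4G11660), a repressor of the heat response, had the lowest mean of the 10 genes. Its signals were 824 in cuc1 cuc2 and 1342 in Ler in the Cy5 hybridization, and 1097 and 1303 in the Cy3 hybridization. The log2 ratios of -0.70 (error 0.22, software p-value 0.00161) and -0.25 (error 0.19, software p-value 0.180) lay 0.46 apart, the widest gap among the 10 genes. The mean log2 ratio of -0.48 (error 0.14), a change of -28.1%, thus drew more on the Cy5 hybridization, and without background correction it was -0.28. HSFB1 (AT4G36990), a class B repressor also known from plant immunity, had signals of 2376 and 2925 in the Cy5 hybridization and of 2662 and 3057 in the Cy3 hybridization. Its log2 ratios were -0.30 (error 0.17) and -0.20 (error 0.17), with a mean of -0.25 (error 0.12) and a change of -15.9%. The median of the class B means was -0.35, beside -0.24 for the class A genes HSFA2, HSFA3 and HSFA7A. The 2 classes had the same median of -0.33 in the Cy5 hybridization. They differed in the Cy3 hybridization, at -0.25 for class B and -0.15 for class A.

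**Figure D1:**
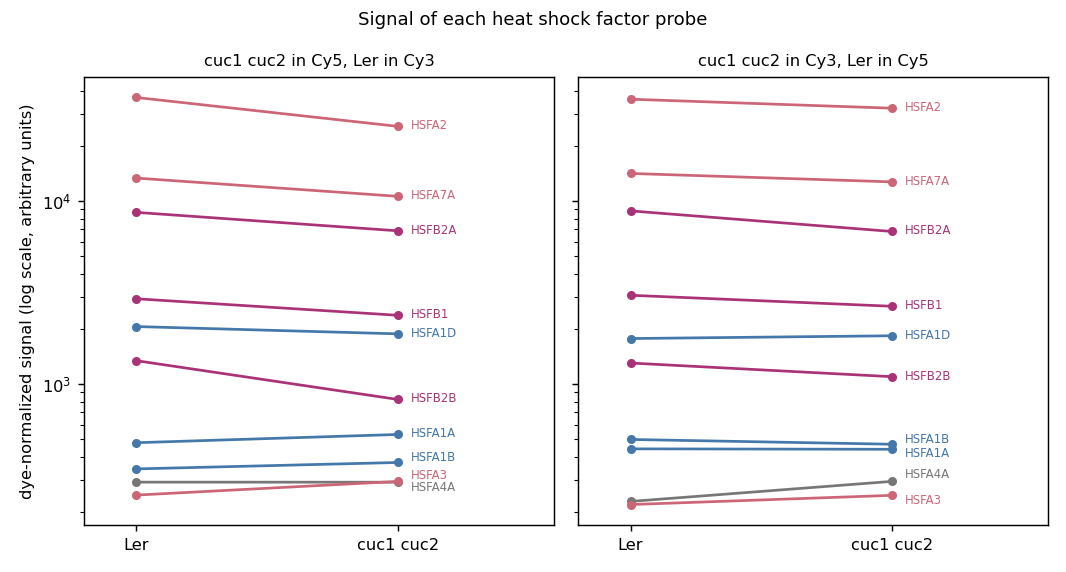
Dye-normalized signal (log scale, arbitrary units) of each of the 10 heat shock factor probes in Ler and cuc1 cuc2, with 1 panel per hybridization and a line joining the genotypes. The lines of HSFA2, HSFA7A, HSFB1, HSFB2A and HSFB2B slope down to cuc1 cuc2 in both panels, and those of the HSFA1 genes change slope between panels. Heights of different probes are not comparable as transcript levels.

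HSFA4A (AT4G18880), a class A factor linked to oxidative stress, was kept apart from the inducible and the HSFA1 genes because its class is less clear. Its signals were 291 in both genotypes in the Cy5 hybridization, and 294 in cuc1 cuc2 and 228 in Ler in the Cy3 hybridization. The log2 ratios were -0.00087 (error 0.55) and 0.36 (error 0.43), so a difference of this size was not detectable at this brightness.

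**Figure D2:**
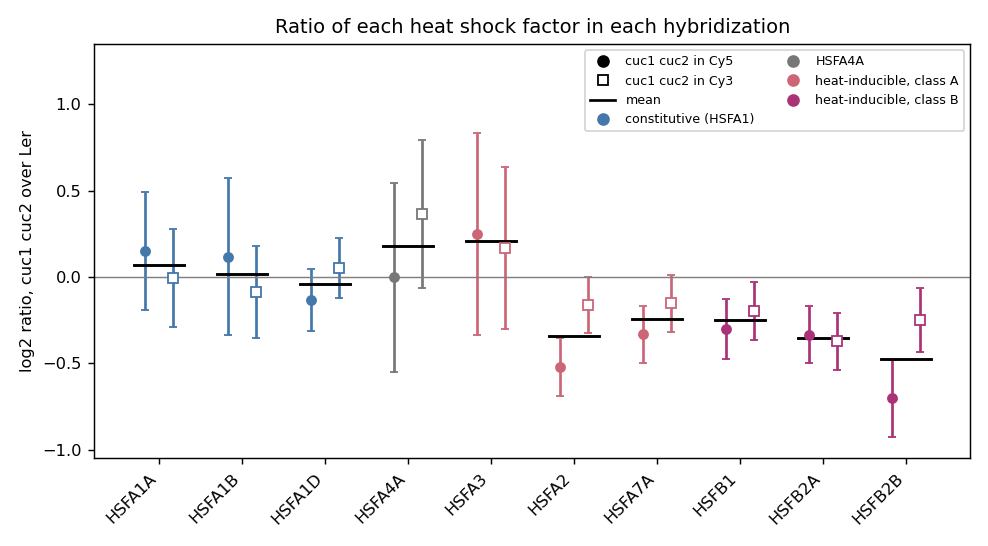
Log2 ratio of cuc1 cuc2 over Ler for each of the 10 genes, with filled circles for the hybridization with cuc1 cuc2 in Cy5, open squares for the one with cuc1 cuc2 in Cy3, bars for the software's error of each ratio and black lines for the mean. Both points of HSFA2, HSFA7A, HSFB1, HSFB2A and HSFB2B lie below 0, and the bars of the dim probes HSFA3, HSFA4A, HSFA1A and HSFA1B are the longest.

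Of the 10 genes, 5 were lower in cuc1 cuc2 in both hybridizations, and over all gene probes 22.9% were. By stricter rules the counts were smaller. HSFB2A alone was lower by over 0.25 on the log2 scale in both hybridizations, which 1.85% of all gene probes were, and 0 of the 10 genes reached the criterion of the study's methods, a software p-value under 0.01 in both, which 0.242% of all gene probes did in this direction. A further rule was added after the values had been seen. The same 5 genes had a mean log2 ratio more than 2 errors below 0, which 2.24% of all gene probes had, and 0 of the 10 had one more than 2 errors above 0, which 3.81% of all gene probes had. HSFA7A and HSFB1 passed this limit narrowly, at -2.08 and -2.06 errors. Under 4 other combinations of background correction and normalization, HSFB1 had means of -0.228 to -0.195 and HSFA7A of -0.235 to -0.224. Set against the same errors (0.121 and 0.116), HSFB1 fell short of the limit in all 4 and HSFA7A in some. In the direction of higher signals, 0 of the 10 genes passed the 0.25 rule or the p-value rule, which 3.26% and 0.502% of all gene probes did.

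Bright probes have smaller errors, and 5 of the 6 HSF probes with an error under 0.25 in both hybridizations were the lower genes. HSFA1D was the exception. Among all probes of such precision, 31.2% were lower in both hybridizations and 3.91% had a mean more than 2 errors below 0. In rank by mean log2 ratio, from the lowest of the 21500 gene probes, HSFB2B was at position 256, HSFB2A at 543, HSFA2 at 581, HSFB1 at 1216 and HSFA7A at 1286. The HSFA1 genes lay in the bulk, at 7866 for HSFA1D, 12403 for HSFA1B and 15483 for HSFA1A, and HSFA4A and HSFA3 were at 18784 and 19270.

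**Figure D3:**
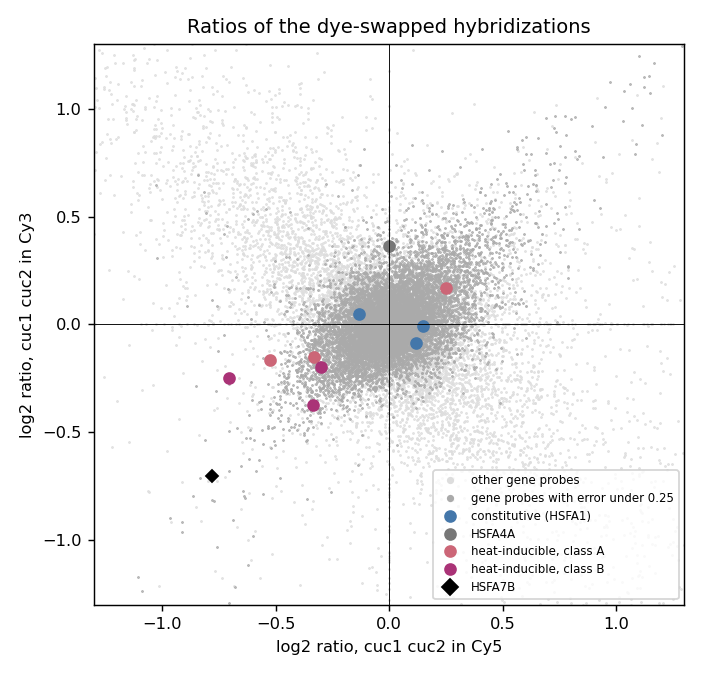
Log2 ratio of cuc1 cuc2 over Ler in the hybridization with cuc1 cuc2 in Cy5 (x axis) and in Cy3 (y axis), with light dots for all gene probes, dark dots for the 10792 with an error under 0.25 in both, and large symbols for the heat shock factors. The axes end at 1.3 in each direction, which leaves out 511 gene probes. The 5 lower genes and HSFA7B lie in the lower left quadrant, and dim probes spread along the opposite diagonal.

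The inducible genes (HSFA2, HSFA3, HSFA7A, HSFB1, HSFB2A and HSFB2B) were then compared with the constitutive HSFA1 genes. Their median log2 ratio was -0.30, beside 0.015 for the HSFA1 genes, a difference of -0.31. The difference of medians was -0.45 in the Cy5 hybridization and -0.17 in the Cy3 hybridization, so its direction was common to both and its size was not. By mean log2 ratio, 5 of the 6 inducible genes lay below every HSFA1 gene, and HSFA3 did not. The lowest HSFA1 mean, that of HSFA1D, was at percentile 36.6 of all gene probes. The same 5 genes lay below every HSFA1 gene in each hybridization. The limit this sets was -0.13 (HSFA1D, error 0.18) in the Cy5 and -0.087 (HSFA1B, error 0.27) in the Cy3 hybridization. Both limits were within their errors of 0, and the share of all gene probes below them was not counted. Genes are not replicates of a condition, and no test was made of this difference. All of the 5 lower genes but HSFB2A had the more negative ratio in the Cy5 hybridization.

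Gene by gene, HSFB2B alone was separated from HSFA1D by more than 2 errors, and only in the deposited ratios. HSFA1D is the HSFA1 probe with the smallest error, and its mean log2 ratio was subtracted from those of the inducible genes. The difference was -0.43 (error 0.19) for HSFB2B, -0.31 (error 0.17) for HSFB2A and -0.30 (error 0.17) for HSFA2. It was nearer to its error for HSFB1, at -0.21 (error 0.17), and for HSFA7A, at -0.20 (error 0.17). HSFA3 had a difference of 0.25 (error 0.40). Under 4 other combinations of background correction and normalization, HSFB2B had means of -0.38 to -0.28 and HSFA1D of -0.038 to -0.011. The difference of HSFB2B from HSFA1D was then smaller, at less than 2 of the errors given here. With the genes in order of their means, from HSFB2B through HSFB2A, HSFA2, HSFB1, HSFA7A, HSFA1D, HSFA1B, HSFA1A and HSFA4A to HSFA3, 8 of the 9 pairs of neighbours differed by less than their combined error. The exception was the step from HSFA7A to HSFA1D. The HSFA1 signals were at most 2062, while HSFA2, HSFA7A, HSFB1 and HSFB2A were brighter than this in every channel, and the part of brightness in the difference was not tested.

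**Figure D4:**
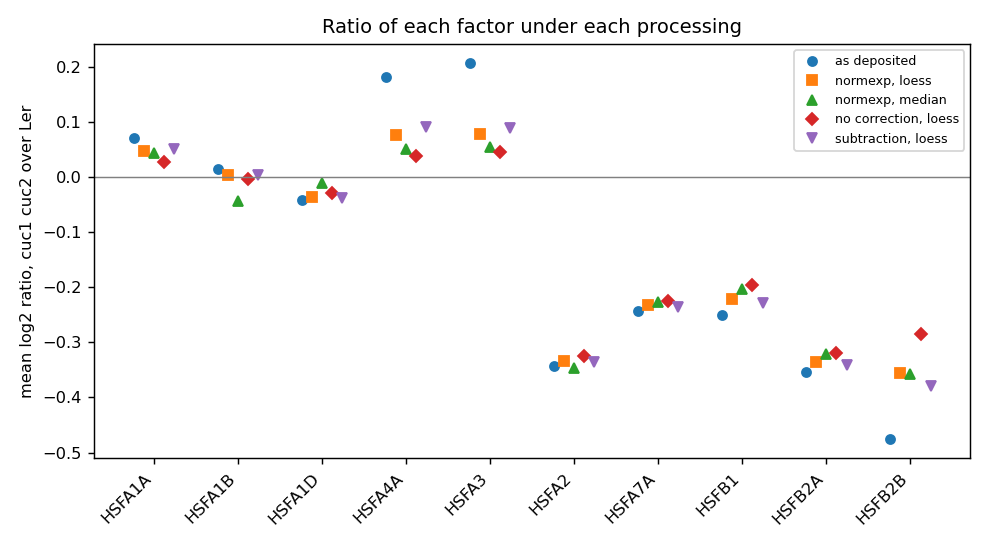
Mean log2 ratio (cuc1 cuc2 relative to Ler) of each heat shock factor from the deposited ratios and under 4 other combinations of background correction and normalization. The 5 lower genes stay below 0 throughout, with HSFB2B moving up from -0.48 to between -0.38 and -0.28.

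The 5 lower genes kept their direction under other processing of the spot intensities. With 4 other combinations of background correction and normalization, the same 5 genes were lower in both hybridizations. So were 5054 of the 21500 gene probes with normexp and loess, and 2404 (11.2%) with normexp and median centring. The counts were 4932 with loess and no background correction and 5016 with loess and plain correction, beside 4913 from the deposited ratios. The median of the inducible genes lay between -0.29 and -0.25, that of the HSFA1 genes between -0.011 and 0.0048, and the difference of medians between -0.29 and -0.25. The means of the dim probes HSFA3 and HSFA4A moved towards 0, with HSFA3 at 0.046 to 0.089 and HSFA4A at 0.039 to 0.091, against 0.21 and 0.18 from the deposited ratios. HSFA1B lay between -0.044 and 0.0048 and so had no settled sign.

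The 11 other HSF genes of Arabidopsis also had a probe each, and 10 of these were well above background in every channel. HSFB3 (AT2G41690) was not above background in any. Their median log2 ratio was 0.015, and HSFA7B (AT3G63350), the close relative of HSFA7A, was the only one lower in both hybridizations. Its signals were 517 in cuc1 cuc2 and 887 in Ler in the Cy5 hybridization, and 459 and 748 in the Cy3 hybridization. The log2 ratios were -0.78 (error 0.28, software p-value 0.00557) and -0.70 (error 0.24, software p-value 0.00382). The mean of -0.74 (error 0.19), a change of -40.2%, lay -0.50 (error 0.22) from that of HSFA7A. The study selected HSFA7B on these same arrays by the p-value rule, so its direction is not independent evidence. Whether the probes of HSFA7A and HSFA7B bind each other's transcripts was not tested.

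The remaining factors were near 0 or poorly measured. HSFA1E (AT3G02990), the HSFA1 gene outside the 10, had a mean log2 ratio of 0.034 (error 0.29). Among class A factors with other roles, the mean log2 ratios were 0.050 (error 0.24) for HSFA4C, 0.18 (error 0.31) for HSFA5, -0.0091 (error 0.14) for HSFA6A and -0.022 (error 0.30) for HSFA6B. HSFA8 had a mean of 0.17 (error 0.18) and was the only one of the 11 higher in both hybridizations. HSFA9, the seed maturation factor, had one of -0.051 with an error of 0.77, too imprecise for a direction. HSFB4, which acts in root stem cell divisions, had a mean of 0.11 (error 0.14), and HSFC1, the only class C factor, one of 0.015 (error 0.19). HSFA6A and HSFB4 were the other 2 HSF probes with an error under 0.25 in both hybridizations, and neither was lower in both. Over all 21 HSF genes, 6 were lower in both hybridizations, 6 had a mean more than 2 errors below 0 and 1, HSFA7B, passed the p-value rule. The shares over all gene probes were 22.9%, 2.24% and 0.242%, so the count lower in both was near that of all gene probes.

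The genes that HSFs are known to turn on were described through a list of heat response genes (chaperones, co-chaperones and enzymes such as APX2 and GOLS1). Of its 29 genes, 28 had a probe, with a median log2 ratio of -0.39. In both hybridizations 26 of the 28 were lower in cuc1 cuc2, beside 22.9% of all gene probes and 31.2% of those with an error under 0.25 in both. A mean more than 2 errors below 0 was found for 25, beside 2.24% and 3.91%. The p-value rule was passed by 8, beside 0.242% of all gene probes, and none was higher in both hybridizations. These 8 were HSP70B at a mean log2 ratio of -0.80, the HSP70 relative HSP70T-2 at -0.45, the plastid chaperone HSP21 at -0.72, the mitochondrial chaperone HSP23.6-MITO at -0.52, the DnaJ-type protein AT2G20560 at -0.50, the co-chaperone HOP3 at -0.53, the endoplasmic reticulum co-chaperone ERDJ3A at -0.51 and the galactinol synthase GOLS1 at -0.80. All 8 were also selected by the study on these arrays, and the list was written with that selection known. Without them, 18 of the 20 genes with a probe were lower in both hybridizations and the median was -0.35. HSP17.6A-II, with -0.67 in the Cy5 and 0.22 in the Cy3 hybridization, and the coactivator MBF1C, with 0.062 and -0.076, were not lower in both.

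**Figure D5:**
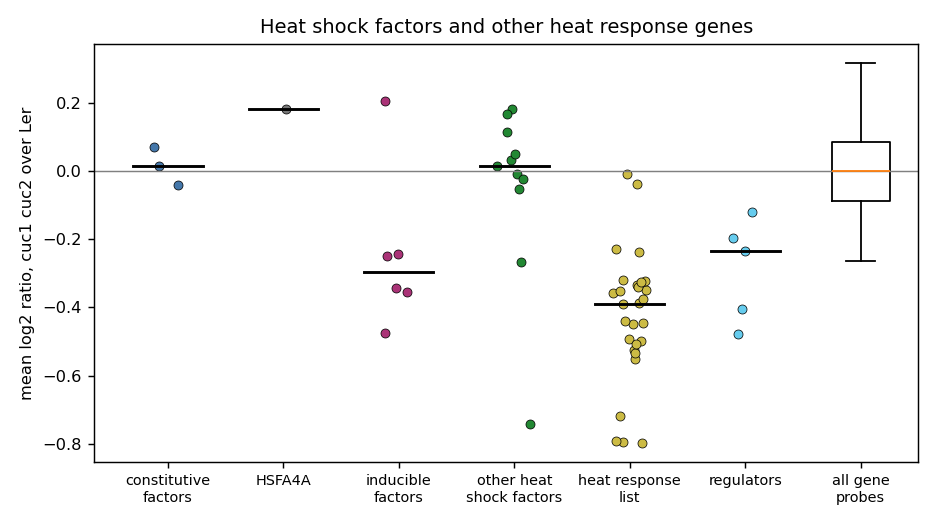
Mean log2 ratio (cuc1 cuc2 relative to Ler) for the inducible and HSFA1 genes, HSFA4A, the other heat shock factors, the heat response list, regulators of the factors and all gene probes, with a point per gene, horizontal bars for medians, and for all gene probes a box of quartiles with whiskers at percentiles 5 and 95. The heat response list has its median at -0.39 and the inducible factors at -0.30, and the HSFA1 genes lie around 0.

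Genes known to regulate the HSFs were measured by 5 probes of 6 listed genes, and 4 of these were lower in both hybridizations, beside 22.9% of all gene probes. Of the 5, DREB2A and HSC70-1 had a mean more than 2 errors below 0, beside 2.24%. DREB2A, the activator of HSFA3, had log2 ratios of -0.48 (error 0.17) and -0.33 (error 0.17), with a mean of -0.41, while HSFA3 itself had the positive ratios given above. HSC70-1, a cytosolic HSP70 that holds HSFA1 inactive, had log2 ratios of -0.61 (error 0.17) and -0.35 (error 0.17). The mean of HSC70-1 was -0.48 (error 0.12), and HSP90.2, a constitutive HSP90, had a mean of -0.12 (error 0.12). The means of NF-YC10, a partner of DREB2A, and of DREB2C were -0.20 (error 0.13) and -0.23 (error 0.79). The ratios of DREB2C had opposite signs, at 0.38 and -0.84.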

How the data were processed

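RNA of 1 Ler and 1 cuc1-1 cuc2-1 extract was measured in 2 dye-swapped hybridizations on the Arabidopsis 2 Oligo array (22575 spots). The authors deposited the scanner output of Agilent Feature Extraction, with spot intensities and backgrounds, and intensities after background subtraction and dye normalization. From these the deposited files give the log10 ratio of red over green, its error and the p-value of the software's error model. The deposited series table held the same log10 ratios, with the sign of the swapped array turned. The genome build is not given in the sources used here, and gene names were matched through a RefSeq table (10 of the 10 genes).

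Deposited ratios were converted to log2, given the direction of cuc1 cuc2 relative to Ler by the dye labels, and averaged. The error of a mean combines the software's errors of both ratios, and it holds no biological error. Calls were counted by sign, by a log2 ratio beyond 0.25, by a software p-value under 0.01 (each in both hybridizations) and by a mean over 2 errors from 0. The last rule and the comparison among probes with an error under 0.25 were added after the data were seen. Spot intensities were reprocessed in limma 3.58.1 (R 4.3.3) with normexp (offset 50), plain or no background correction and loess or median centring. Scripts were tested on simulated data. The genes and lists were chosen with earlier results of these data known. The genes named are the 10, the 11 other HSFs, heat response genes that passed the p-value rule, HSF regulators, CUC1 and CUC2, and the markers of embryo, endosperm and seed coat. APX2 is named only as an example of the list, and HSP17.6A-II and MBF1C were added after their values were seen, since they were the exceptions on their list. The number of arrays limits precision. Promoter, protein and probe sequences were not analysed here.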

Additional observations from a re-analysis of the deposited data

How the results depend on the processing

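HSFA2, HSFA7A, HSFB1, HSFB2A and HSFB2B and the medians of the inducible genes, the class B genes and the heat response list were below 0 under every alternative run. Between single hybridizations, the inducible median ranged from -0.33 to -0.18, the HSFA1 median from -0.0079 to 0.12, the class B median from -0.33 to -0.25, the median of the other HSFs from -0.022 to 0.0, and that of the heat response list from -0.45 to -0.37. The class B median was -0.28 with loess and no background correction, and the other HSFs' median was -0.013 with normexp and median centring. The cause was not tested. With HSFA4A counted as inducible the inducible median was -0.25, and as constitutive the HSFA1 median was 0.043. Of alternatives chosen after seeing the data, leaving out spots marked non-uniform gave an inducible median of -0.25 and a difference of -0.26, and weighting by errors also gave a difference of -0.26. No paired analysis was possible because the only replicates are 2 hybridizations of the same extracts and no test was run. For HSFA1A, HSFA1B, HSFA1D, HSFA3 and HSFA4A the error of the mean exceeded the size of the mean.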
